A study of Mus musculus with 143 samples.

Results

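Dis3, Exosc10, Dis3l and Dis3l2 are the exosome ribonuclease genes and the paralogues of Dis3, and they were taken by name as 4 of 55573 gene identifiers counted in 71 poly(A) libraries and 55487 counted in 48 RiboMinus libraries, each library made from a single mouse oocyte. Poly(A) sequencing was done at 3 stages: the germinal vesicle (GV) stage, after 3 h of culture (labelled GV3h), and metaphase II (MII) after ovulation. Each was sequenced as control (8 libraries at each stage) and as Dis3 conditional knockout (cKO, with 15, 16 and 16 libraries). The RiboMinus groups, sequenced after removal of ribosomal RNA, held 8 libraries each. Adult GV oocytes were control or Dis3 cKO, and oocytes of p20 (read here as postnatal day 20) were control, Dis3 cKO, Exosc10 cKO or a double knockout of both genes (dcKO). GV and GV3h oocytes were dissected from ovaries and kept in M2 medium, and MII eggs came from the oviducts of superovulated mice. Pooled oocytes were also profiled by CUT&Tag, which tags chromatin where an antibody is bound, for RNA polymerase II (Pol II) and the histone mark H3K27me3, with 3 peak lists per group.

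The labels say that the mutant mice were made with CRISPR/Cas9. They name neither the Cre driver nor the exons removed by the conditional alleles, so a gene-level count can include exons that the allele leaves in place. The females that gave the oocytes are not named, and p-values therefore measure the spread between oocytes. Oocyte 9 of the GV Dis3 cKO numbering was not among the samples, and the 3 IgG samples were not analysed here.

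The RNA exosome is a ring of inactive core subunits to which separate ribonucleases bind. DIS3 is its nuclear ribonuclease, with both exonuclease and endonuclease activity, and EXOSC10 is a nuclear exonuclease enriched in the nucleolus. DIS3L is the DIS3 paralogue of the cytoplasmic exosome. DIS3L2 works in the cytoplasm without the exosome and prefers RNAs that carry a uridine tail. In oocytes, growth is a time of transcription, while fully grown oocytes and eggs are largely silent and live on stored RNA.

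In the mouse build GRCm38.p6 (RefSeq), Dis3 (ENSMUSG00000033166) lies at chr14:99076634-99099780 on the minus strand and Exosc10 (ENSMUSG00000017264) at chr4:148558419-148582401 on the plus strand. Dis3l (ENSMUSG00000032396) lies at chr9:64306756-64341403 on the minus strand and Dis3l2 (ENSMUSG00000053333) at chr1:86701924-87050097 on the plus strand. All 4 are protein-coding. The promoters of the 2 deleted genes share a palindromic motif, and they are shown, from RefSeq, because this motif is shared by the deleted genes. Each line covers 60 bases before and 30 bases from the start, at chr14:99099741-99099830 (minus strand) and chr4:148558359-148558448 (plus strand), and capitals mark TCTCGCGAGA. The start is that of the promoter table, which for Dis3 lies inside the gene span given above.
Dis3: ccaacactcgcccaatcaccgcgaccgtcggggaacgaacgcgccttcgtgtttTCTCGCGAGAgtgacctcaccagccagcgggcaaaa
Exosc10: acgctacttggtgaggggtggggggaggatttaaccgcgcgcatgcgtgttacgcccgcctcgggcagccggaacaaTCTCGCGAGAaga
The motif reads the same on both strands and stood in 153 of 32851 promoters of 300 bases (0.466%). It is the longest palindrome that both promoters hold, was noticed after the sequences were read, and was not found in the listed promoters of Dis3l and Dis3l2. Searched on either strand, GGGCGG was found in the promoters of all 4 genes (35.7% of all promoters hold it) and CCGGAA in those of Dis3, Exosc10 and Dis3l2 (14.9%). TATAAA was in none of the 4 (13.6%).

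Counts summed over genes ranged from 4843964 to 15412200 in poly(A) libraries and from 8492102 to 35429028 in RiboMinus libraries. All 14 genes of a list of oocyte markers had a group mean of at least 1 count per 1000000 counts (CPM) in every group. A list of 12 granulosa and cumulus markers summed to 50.4 to 224 CPM in poly(A) and 76.4 to 207 CPM in RiboMinus libraries, against 8257 to 27958 and 9330 to 20465 CPM for the oocyte list. In MII Dis3 cKO eggs 3 of those 12 were at 0 in every library, and of 10 tested there 1 was higher and 6 were lower than in controls (median log2 -1.09, all genes 0.16), where 42.1% of all genes were called. In dcKO 7 of the 14 oocyte markers were higher and 5 lower (median 0.32, all genes -0.01), where 53.7% of all genes were called. The part of these shifts in the MII and dcKO results was not tested. MII Dis3 cKO replicate 15 and GV control replicate 1 stood apart from their groups. Leaving out the first gained 2 calls in the poly(A) tests of the 4 genes and leaving out the second gained 0, both lost 0, and values without them stand beside the knockout and stage differences of the groups they belong to. Levels are CPM with TMM-scaled library sizes. They are compared within a gene only, because transcript lengths were not used here, and not between the assays.

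No rise of a ribonuclease paralogue passed the test when a ribonuclease was lost. Dis3l and Dis3l2 were each tested in 7 comparisons of a knockout with its control (edgeR quasi-likelihood test, Benjamini-Hochberg adjustment over all genes, threshold 0.05). Of these 14 tests 0 were higher and 4 were lower, all 4 of them Dis3l. At an unadjusted p under 0.05 the counts were likewise 0 and 4, and DESeq2 gave 0 and 4. The 3 p20 comparisons share their control libraries, and the 3 poly(A) comparisons share 1 fit.

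The members' calls are given beside the share of all tested genes that were called. A deleted gene is low in its own knockout by design, so only calls of genes not deleted can be read against that share. In poly(A) GV oocytes 1 of the 4 genes was called (Dis3), where 21.9% of all genes were. In GV3h oocytes it was 3 of 4 (all but Dis3l2), where 38.6% of genes were called. In MII eggs it was 2 of 4 (Dis3 and Dis3l), beside 42.1% of genes. In adult RiboMinus oocytes 1 of 4 was called (Dis3), beside 28.1%. At p20, 2 of 4 were called in Dis3 cKO (Dis3 and Dis3l), beside 7.37%, and 1 of 4 in Exosc10 cKO (Exosc10), beside 7.45%. In dcKO 3 of 4 were called (all but Dis3l2), beside 53.7% of genes. Among genes not deleted, the calls were Exosc10 and Dis3l at GV3h and Dis3l at MII, in p20 Dis3 cKO and in dcKO. Every call listed was a lower level in the knockout.

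**Figure D1:**
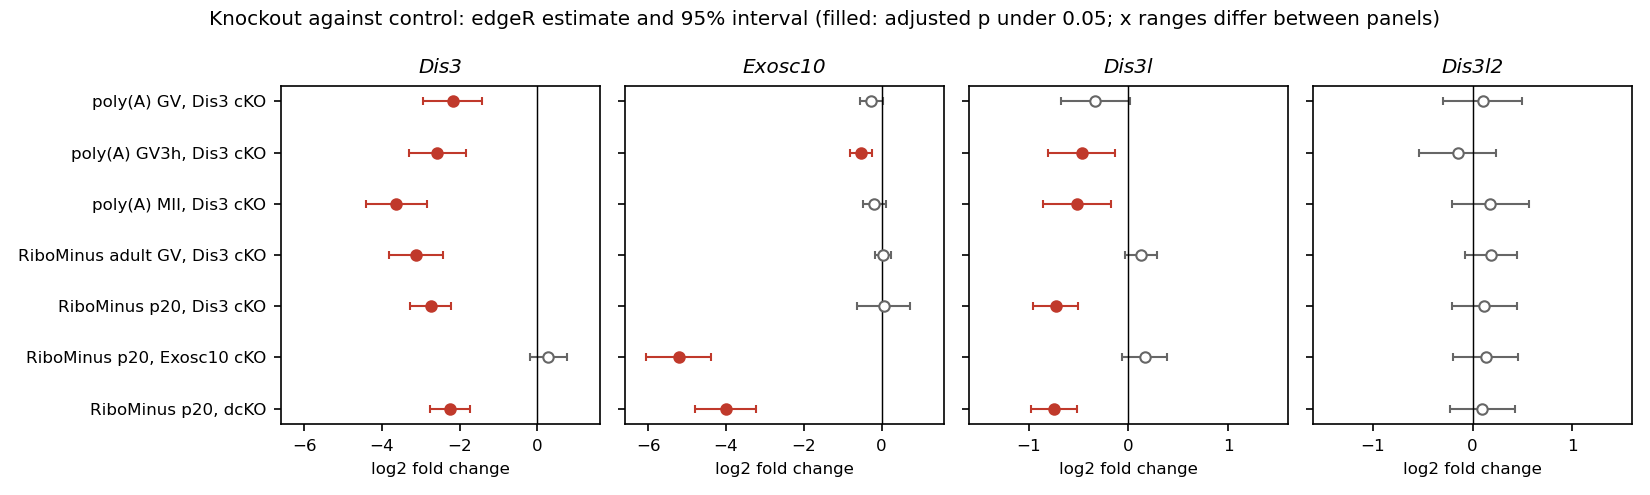
Log2 fold change of each gene (x axis, 0 is no change) in the 7 comparisons of a knockout with its control (rows), with 95% intervals as bars and filled points for an adjusted p under 0.05. Dis3 and Exosc10 lie far to the left where they were deleted, Dis3l lies left of 0 in 4 called comparisons, and every interval of Dis3l2 crosses 0.

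Dis3 was lower in each Dis3 knockout, library by library. In GV controls Dis3 had 9.58, 12.6 and 17.8 CPM (lowest, median, highest of 8), and in GV Dis3 cKO oocytes 0.682, 2.81 and 5.85 CPM (of 15). The GV3h values were 7.27, 13.2 and 18.0 CPM in controls and 0.212, 2.13 and 5.24 CPM in the knockout. MII controls had 2.67, 10.3 and 20.8 CPM and MII Dis3 cKO eggs 0, 0.567 and 2.37 CPM. At each stage every knockout library lay below every control library. Replicates 8 and 16 of the MII knockout had a count of 0, where 3 counts would have been 0.480 and 0.266 CPM of the summed gene counts. The log2 fold change was -2.18 (SE 0.38, adjusted p = 5.5e-06) at GV, -2.57 (SE 0.37, adjusted p = 5.2e-08) at GV3h and -3.63 (SE 0.39, adjusted p = 6.3e-12) at MII. Without GV control replicate 1 the GV value was -2.14, and without MII Dis3 cKO replicate 15 the MII value was -3.60.

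The MII controls varied widely in Dis3 (9.69 ± 5.90 CPM, SD, n = 8). Their values were 20.8, 11.1, 12.3, 9.52, 12.1, 2.67, 5.38 and 3.64 CPM, so replicates 4, 6, 7 and 8 lay below the lowest GV control. Between GV and MII controls Dis3 differed by -0.44 (95% interval -1.31 to 0.44, adjusted p = 0.404), and the little Dis3 signal left in the knockout fell by 1.88 (SE 0.35, adjusted p = 3.6e-06). These values were -0.29 without GV control replicate 1 and -1.86 without MII Dis3 cKO replicate 15. On the ERCC scale both were called, at -2.27 in controls (adjusted p = 1.9e-05, median gene -2.12) and -3.06 in the knockout (adjusted p = 2.8e-11, median gene -1.50). The test of the difference between these stages in the Dis3 effect gave -1.44 (SE 0.56, adjusted p = 0.0732), short of the threshold. It passed with DESeq2 (-1.51, adjusted p = 0.0354), with title numbers 1 to 8 alone (-2.13, adjusted p = 0.0036) and without MII control replicate 6 (-1.59, adjusted p = 0.0486), and it was -0.79 (adjusted p = 0.280) on the ERCC scale, where the median gene was at 0.68. Relative to the median gene it was -1.48 on that scale and -1.52 with TMM.

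**Figure D2:**
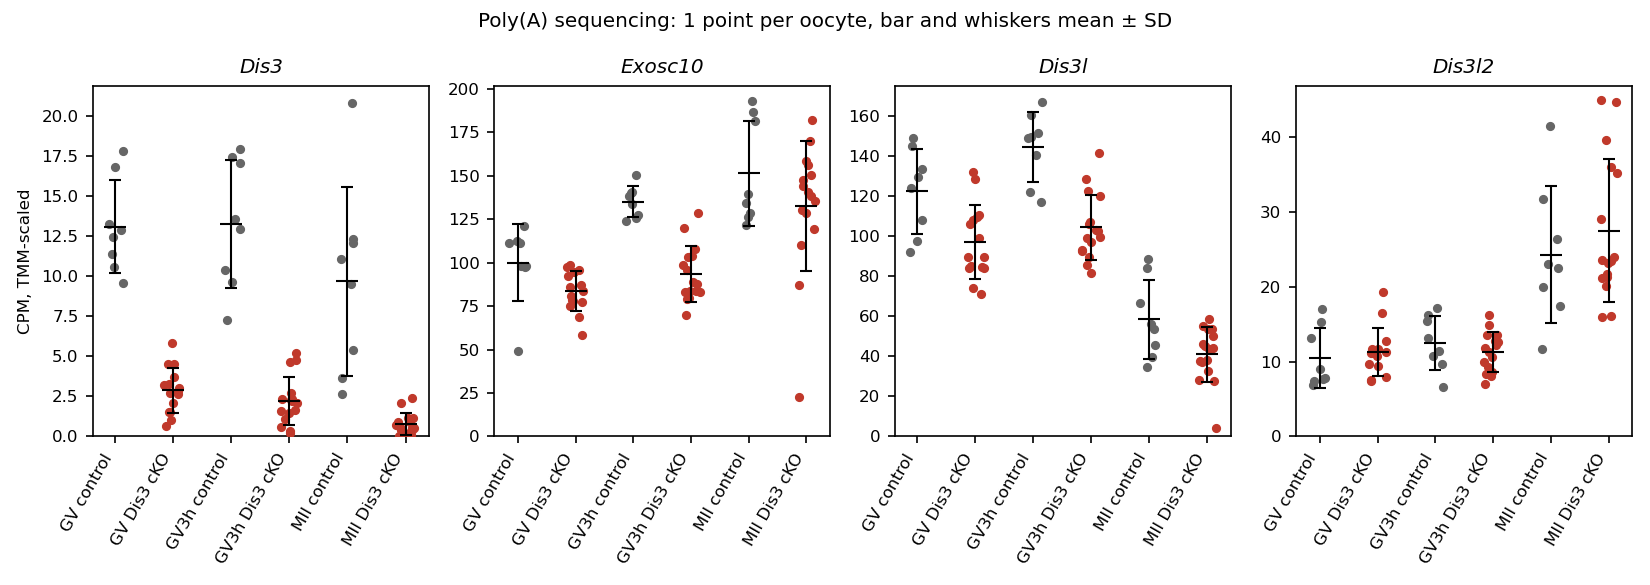
Level of each gene in CPM (y axis) in every poly(A) library, by stage and genotype (x axis), with the mean and SD of each group as bars. Dis3 separates the genotypes at every stage, Dis3l drops and Dis3l2 climbs at MII in both genotypes, and Exosc10 in GV3h Dis3 cKO lies mostly below the controls of that stage.

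In RiboMinus libraries the adult controls had 8.90, 15.9 and 22.5 CPM of Dis3 (lowest, median, highest of 8) and the adult Dis3 cKO oocytes 0.698, 1.81 and 3.25 CPM. At p20 the controls had 6.20, 13.9 and 20.1 CPM, the Dis3 cKO 1.29, 1.68 and 4.11 CPM, and the dcKO 1.68, 2.68 and 4.24 CPM. In none of these 3 knockouts did a library reach the lowest control. Its log2 fold change was -3.13 in adult Dis3 cKO (SE 0.33, adjusted p = 2.5e-06), -2.74 in p20 Dis3 cKO (SE 0.26, adjusted p = 6.0e-10) and -2.25 in dcKO (SE 0.25, adjusted p = 5.9e-09). The adult and p20 effects differed by -0.40 (95% interval -1.19 to 0.38, adjusted p = 0.596). Dis3 in dcKO against Dis3 cKO was 0.49 higher (95% interval -0.03 to 1.01, adjusted p = 0.108), and without p20 Dis3 cKO oocyte 1_4, the highest of its group, 0.69 higher (adjusted p = 0.0199). On the ERCC scale it was called at 0.78 (adjusted p = 0.0084), where the median gene was at 0.26. Relative to the median gene it was 0.52 on that scale and 0.47 with TMM.

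With Exosc10 lost, Dis3 was not called. The Exosc10 cKO oocytes had 11.2, 15.9 and 22.7 CPM of Dis3, overlapping the controls, and the difference was 0.28 (95% interval -0.20 to 0.75, adjusted p = 0.546). It was -0.31 for tag 1 (14.3 against 17.7 CPM, adjusted p = 0.647) and 0.99 for tag 2 (18.6 against 9.47 CPM, adjusted p = 0.0676), and the tag 2 groups did not overlap.

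Each RiboMinus group carries 2 tags in its titles, with 4 oocytes per tag, and what a tag stands for is not stated. Dis3 differed between the tags of the controls. It was 21.2 ± 1.23 CPM in the adult controls tagged AM1758 and 10.5 ± 1.59 CPM in those tagged AM1759 (SD, n = 4 each). At p20 it was 17.7 ± 1.80 CPM under control tag 1 and 9.47 ± 2.56 CPM under tag 2 (SD, n = 4 each). Neither pair overlapped. In adult Dis3 cKO the tags AM1713 and AM1757 had 2.21 and 1.37 CPM, below both control tags. With counts summed per tag, the adult difference in Dis3 was -3.20 (adjusted p = 0.119).

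Exosc10 was tested both as a target and as a partner left intact when Dis3 was lost. As a target at p20, it had 102, 117 and 138 CPM in controls (lowest, median, highest of 8), 0.347, 1.93 and 10.5 CPM in Exosc10 cKO and 3.09, 4.83 and 14.4 CPM in dcKO. No knockout library came near the lowest control. Exosc10 fell by 5.22 in Exosc10 cKO (SE 0.41, adjusted p = 1.5e-11) and by 4.01 in dcKO (SE 0.39, adjusted p = 3.4e-10). In dcKO against Exosc10 cKO 3 of the 4 genes were called, Dis3 among them by genotype, beside 49.2% of all genes. Residual Exosc10 was 1.21 higher in dcKO than in Exosc10 cKO (SE 0.38, adjusted p = 0.0088). That difference was not uniform over the tags: it was -0.22 for tag 1 alone (adjusted p = 0.659) and 2.95 for tag 2 alone (adjusted p = 0.00012), and with counts summed per tag it was 1.17 (adjusted p = 0.142). It was 1.22 (adjusted p = 0.0688) in a fit of these groups alone.

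When Dis3 was the deleted gene, Exosc10 was called at 1 of 3 poly(A) stages. Exosc10 in GV controls was 49.1, 97.8, 112, 112, 112, 98.3, 98.1 and 121 CPM, and in the GV Dis3 cKO 58.2, 83.9 and 98.9 CPM. The GV3h controls had 124, 136 and 150.4 CPM and the GV3h Dis3 cKO 70.1, 88.3 and 129 CPM. In MII eggs it was 121, 137 and 193 CPM in controls and 22.6, 139.7 and 182 CPM in the knockout, with overlap. At GV 15 of 15 knockout libraries lay below the control mean and 4 of 8 controls above the highest knockout library, and at GV3h 15 of 16 lay below the lowest control. Exosc10 fell by 0.53 in GV3h (SE 0.15, adjusted p = 0.0026; on the ERCC scale -0.57, adjusted p = 0.0510), while the difference was -0.26 at GV (95% interval -0.56 to 0.04, adjusted p = 0.226) and -0.19 at MII (95% interval -0.48 to 0.10, adjusted p = 0.306). The difference in effect between GV3h and GV was -0.27 (adjusted p = 0.624). Without GV control replicate 1, the lowest GV control at 49.1 CPM, the GV value was -0.38 (adjusted p = 0.0624). Without MII Dis3 cKO replicate 15, the lowest of all at 22.6 CPM, the MII value was -0.11 (adjusted p = 0.417).

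In RiboMinus oocytes Exosc10 was not called on loss of Dis3 with TMM scaling. Adult controls had 119, 134 and 155 CPM and the adult Dis3 cKO 101, 143 and 172 CPM, a difference of 0.04 (95% interval -0.16 to 0.24, adjusted p = 0.805). On the ERCC scale it was called lower at -0.52 (adjusted p = 0.0164), level with the median gene at -0.52. At p20 the Dis3 cKO had 103, 122 and 139 CPM, and its difference from the controls was 0.06 (95% interval -0.62 to 0.73, adjusted p = 0.952).

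**Figure D3:**
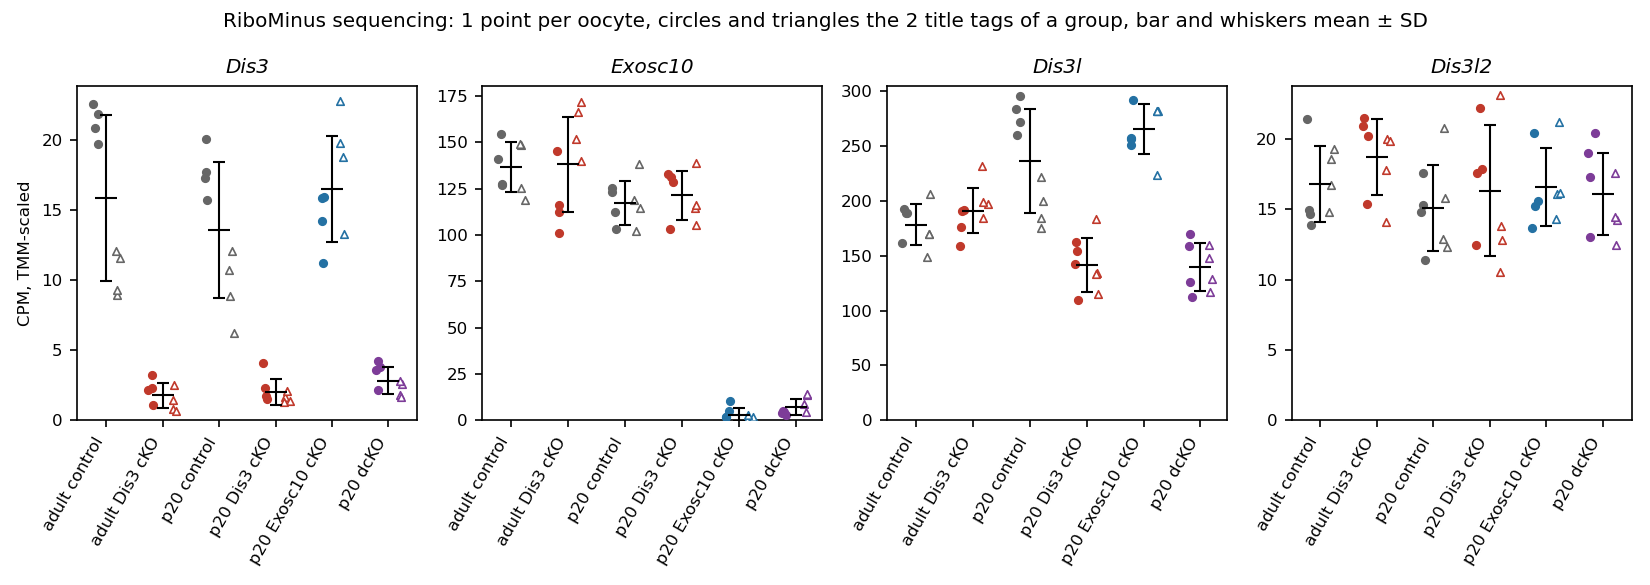
Level of each gene in CPM (y axis) in every RiboMinus library by group (x axis), with circles and triangles for the 2 title tags of a group and the group mean and SD as bars. Dis3 and Exosc10 are near 0 where they were deleted, p20 Dis3l is lower in Dis3 cKO and dcKO but not in Exosc10 cKO, and the control tags separate for Dis3 and for p20 Dis3l.

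Dis3l, the cytoplasmic exosome ribonuclease, was called lower in 4 of the 6 comparisons of oocytes lacking Dis3 with controls, at p20 in Dis3 cKO and dcKO and at GV3h and MII. At p20 it had 175, 241 and 295 CPM in controls (lowest, median, highest of 8), 109, 138 and 184 CPM in Dis3 cKO and 112, 138 and 170.2 CPM in dcKO. All 8 oocytes of each of these 2 knockouts lay below the control mean, and 7 of 8 and 8 of 8 lay below the lowest control. Dis3l fell by 0.73 in Dis3 cKO (SE 0.11, adjusted p = 1.8e-05) and by 0.74 in dcKO (SE 0.11, adjusted p = 1.3e-06). Between dcKO and Dis3 cKO the difference was -0.01 (95% interval -0.24 to 0.21, adjusted p = 0.929).

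Exosc10 loss alone left Dis3l at 224, 269 and 291 CPM, with 7 of 8 oocytes above the control mean, and the difference from controls was 0.16 (95% interval -0.06 to 0.39, adjusted p = 0.429). By tag it was -0.076 for tag 1 (264 against 278 CPM, adjusted p = 0.842) and 0.46 for tag 2 (267 against 195 CPM, adjusted p = 0.0878). Under tag 2 every Exosc10 cKO oocyte lay above every control. In the direct comparison of the single knockouts 3 of the 4 genes were called, Dis3 and Exosc10 by genotype, beside 9.98% of all genes. It put Dis3l 0.90 higher in Exosc10 cKO than in Dis3 cKO (SE 0.11, adjusted p = 3.0e-07). The dcKO lay 0.91 below the Exosc10 cKO (log2 -0.91, SE 0.11, adjusted p = 6.7e-08). Whether the double loss departed from the sum of the single losses was also tested, and for Dis3l it gave -0.18 (95% interval -0.50 to 0.14, adjusted p = 0.419), where 31.4% of all genes were called and 0 of the 4. For Exosc10 it gave 1.16 (95% interval 0.13 to 2.19, adjusted p = 0.0784), and without Exosc10 cKO oocyte 1_3 it was called at 1.71 (adjusted p = 0.0036).

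The p20 control tags bear on the size of this result. Tag 1 controls had 278 ± 15.2 CPM of Dis3l and tag 2 controls 195 ± 20.4 CPM (SD, n = 4 each), without overlap, while both tags of Dis3 cKO had 142 CPM on average. Dis3l in Dis3 cKO was -0.96 for tag 1 alone (adjusted p = 7.6e-05) and -0.45 for tag 2 alone (adjusted p = 0.122), and with counts summed per tag it was -0.74 (adjusted p = 0.0537). In dcKO the corresponding values were -0.96, -0.47 (adjusted p = 0.0188) and -0.78 (adjusted p = 0.0048).

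In adult RiboMinus oocytes Dis3l was not called with TMM scaling on loss of Dis3. Controls had 148, 179 and 206 CPM and the Dis3 cKO 159, 191 and 231 CPM, with overlapping groups and a difference of 0.12 (95% interval -0.04 to 0.29, adjusted p = 0.239). On the ERCC scale, where the median gene was at -0.52, Dis3l was called lower at -0.43 (adjusted p = 0.0453). The Dis3 effect on Dis3l differed between adult and p20 oocytes by 0.84 (SE 0.15, adjusted p = 7.4e-05), in a test where 9.32% of all genes were called and 1 of the 4. From p20 to adult, Dis3l was 0.41 lower in controls (log2 -0.41, SE 0.10, adjusted p = 0.0037), beside 19.1% of genes called, and 0.43 higher in Dis3 cKO (SE 0.10, adjusted p = 0.00092), beside 37.5%. With counts summed per tag neither was called (adjusted p = 0.232 and 0.0993). On the ERCC scale the change in controls was -2.085 (adjusted p = 1.8e-13), where the median gene was at -1.69. Relative to that gene it was -0.39, and -0.40 with TMM. The change in Dis3 cKO on the ERCC scale was -1.47 (adjusted p = 1.4e-10), where the median gene was at -1.86. Relative to the median gene it was 0.39 on that scale and 0.38 with TMM. The oocyte marker list counted 3 higher and 7 lower of 14 from p20 to adult in controls (median -0.24), 2 and 8 in Dis3 cKO (median -0.41), and 4 and 6 in adult Dis3 cKO against controls (median -0.24, 28.1% of all genes called). Its part in the Dis3l values was not tested. The age difference in effect was 0.62 when libraries were scaled to added ERCC RNAs (adjusted p = 0.173, median gene -0.19) and 0.81 with counts summed per tag (adjusted p = 0.200). Age and preparation of the libraries cannot be told apart in these groups.

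In poly(A) libraries the difference of Dis3l was below 0 at all 3 stages. GV controls had 92.3, 127 and 149 CPM and GV Dis3 cKO oocytes 71.4, 89.6 and 132 CPM, with 13 of 15 below the control mean. The GV3h values were 117, 149.6 and 167 CPM against 81.8, 101 and 142 CPM, with 16 of 16 below the control mean and 12 below the lowest control. MII controls had 34.9, 54.8 and 88.6 CPM and the MII Dis3 cKO 4.12, 43.9 and 58.8 CPM, with 15 of 16 below the control mean. The groups overlapped at each stage.

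Dis3l fell by 0.47 at GV3h (SE 0.17, adjusted p = 0.0220) and by 0.51 at MII (SE 0.17, adjusted p = 0.0120). At GV the difference was -0.33 (95% interval -0.68 to 0.01, adjusted p = 0.170), and the same -0.33 was called without MII Dis3 cKO replicate 15 (adjusted p = 0.0446), which shares the fit. Without GV control replicate 1 it was -0.31 (adjusted p = 0.238). A fit of each stage alone called GV (-0.34, adjusted p = 0.0274) and lost the call at MII (-0.54, adjusted p = 0.104). On the ERCC scale the GV3h call was lost at a similar size (-0.54, adjusted p = 0.107, median gene 0.04). The effects at GV3h and at MII differed from that at GV by -0.14 and -0.18 (adjusted p = 0.869 and 0.692), where 2.04% and 13.2% of all genes were called and 0 of the 4. These differences were -0.21 and -0.23 without GV control replicate 1, and -0.14 and -0.096 without MII Dis3 cKO replicate 15, none of them called. The MII difference from controls without Dis3 cKO replicate 15, at 4.12 CPM the lowest of all, was -0.43 (adjusted p = 0.0045). It was -0.40 (adjusted p = 0.0609) without MII control replicate 7 and -0.42 (adjusted p = 0.0511) without replicate 8, and -0.04 (adjusted p = 0.916) on the ERCC scale, where the median gene was at 0.52. Relative to the median gene Dis3l at MII was -0.67 with TMM and -0.56 on the ERCC scale.

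Dis3l2, the ribonuclease of uridylated RNAs, gave no call in any of the 7 knockout comparisons. Over all 48 RiboMinus libraries its level lay between 10.5 and 23.1 CPM. The group means there ran from 15.1 ± 3.05 CPM in p20 controls to 18.7 ± 2.7 CPM in adult Dis3 cKO (SD, n = 8 each), and the 1-SD ranges of neighbours in that order all met. The difference was 0.18 in adult Dis3 cKO (95% interval -0.08 to 0.45), 0.12 in p20 Dis3 cKO (-0.21 to 0.44), 0.13 in Exosc10 cKO (-0.19 to 0.46) and 0.10 in dcKO (-0.23 to 0.42), with adjusted p from 0.290 to 0.760.

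In poly(A) libraries Dis3l2 in controls and Dis3 cKO was 6.91, 8.38 and 17.02 CPM against 7.41, 11.2 and 19.3 CPM at GV. At GV3h it was 6.67, 12.3 and 17.1 CPM against 7.02, 11.5 and 16.2 CPM. At MII it was 11.7, 22.8 and 41.5 CPM against 16.0, 23.5 and 44.9 CPM. The genotypes overlapped at each stage, and the differences were 0.10 (95% interval -0.29 to 0.50), -0.15 (-0.54 to 0.24) and 0.18 (-0.21 to 0.56), with adjusted p from 0.476 to 0.773. The GV value was 0.04 without GV control replicate 1, and the MII value 0.15 without MII Dis3 cKO replicate 15. These intervals leave room for a rise of up to 0.56 on the log2 scale, and on the ERCC scale the MII difference was 0.53 (SE 0.27, adjusted p = 0.111), with the median gene at 0.52.

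With TMM scaling both paralogues changed with stage in the poly(A) libraries, in opposite directions. On the ERCC scale, given further below, neither the rise of Dis3l2 nor that of Exosc10 held. MII eggs had no RiboMinus libraries, so the stage values hold for poly(A) sequencing alone. From GV to MII in controls 3 of the 4 genes were called, beside 58.5% of all genes. Dis3l fell by 1.06 (SE 0.20, adjusted p = 5.8e-06) and Dis3l2 rose by 1.21 (SE 0.23, adjusted p = 4.7e-06). Exosc10 rose by 0.60 (SE 0.17, adjusted p = 0.0021). Without GV control replicate 1 these values were -0.94, 1.2404 and 0.59, all called. GV and MII controls did not overlap for Dis3l or for Exosc10, and 7 of 8 MII controls lay above the highest GV control for Dis3l2. Of 10 granulosa and cumulus markers tested, 1 was higher and 6 were lower at MII in controls (median -2.20, all genes -0.27), and 1 and 8 in Dis3 cKO (median -3.26, all genes -0.26). Their part in the stage results was not tested.

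The same stages were compared within Dis3 cKO, where 4 of 4 genes were called beside 63.3% of all genes. Dis3l fell by 1.2402 (SE 0.15, adjusted p = 1.2e-11), Dis3l2 rose by 1.28 (SE 0.16, adjusted p = 1.9e-10) and Exosc10 rose by 0.67 (SE 0.12, adjusted p = 3.1e-06). Without MII Dis3 cKO replicate 15 these values were -1.16, 1.25 and 0.75, all called. The stage difference in effect was 0.08 for Dis3l2 (95% interval -0.47 to 0.63, adjusted p = 0.899) and 0.07 for Exosc10 (-0.35 to 0.49, adjusted p = 0.878). For Exosc10 it was 0.154 without GV control replicate 1 and 0.146 without MII Dis3 cKO replicate 15, neither called. On the ERCC scale it was 0.61 for Dis3l2 (adjusted p = 0.213) and 0.74 for Exosc10 (adjusted p = 0.0756), with the median gene at 0.68.

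In the 3 h of culture 0 of the 4 genes were called in controls, beside 2.71% of all genes by edgeR. At an unadjusted p under 0.05 there was 1, Exosc10, at 0.43 (95% interval 0.09 to 0.78, adjusted p = 0.178). All 8 GV3h controls lay above the highest GV control for Exosc10, and a fit of the compared groups alone gave 0.44 and called it. Without MII Dis3 cKO replicate 15, which shares the fit, it was also called at 0.43 (adjusted p = 0.0313). Without GV control replicate 1 it was 0.36 and not called (adjusted p = 0.283). In Dis3 cKO the same step called 0 of 4 by edgeR with TMM, beside 17.3% of genes, and on the ERCC scale Exosc10 was called at 0.61 (adjusted p = 0.011), where the median gene was at 0.47. Relative to the median gene it was 0.14 on that scale and 0.16 with TMM.

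The stage result depends on what a level is measured against. Scaling to the added ERCC RNAs moved the median of all genes from -0.27 to -2.12 between GV and MII controls, and from -0.26 to -1.50 in Dis3 cKO. Dis3l2 in controls was then -0.61 (adjusted p = 0.0588, not called) and Exosc10 -1.26 (adjusted p = 2.7e-05), so both reversed in sign. Dis3l in controls was -2.92 (adjusted p = 7.2e-13). In Dis3 cKO the ERCC values were -0.0064 for Dis3l2 (adjusted p = 0.979) and -0.51 for Exosc10, called lower (adjusted p = 0.0124). Relative to the median gene in controls, Dis3l2 was 1.48 higher with TMM and 1.51 higher on the ERCC scale. The corresponding values were 0.87 and 0.86 for Exosc10 and -0.79 and -0.80 for Dis3l.

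**Figure D4:**
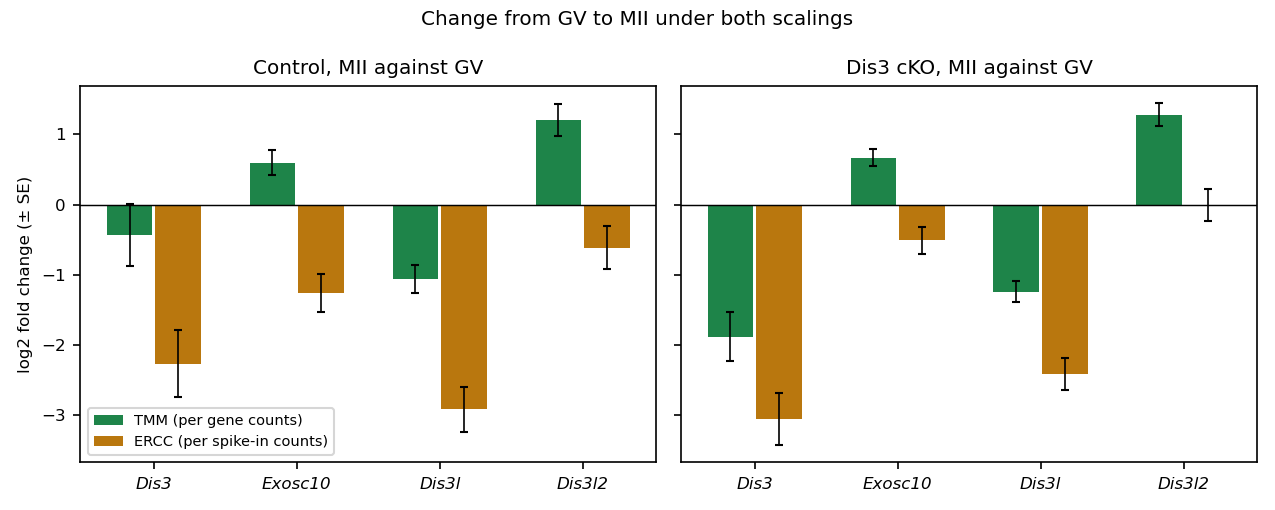
Log2 fold change from GV to MII (y axis) of each gene (x axis) in controls and Dis3 cKO, with TMM scaling and with ERCC scaling, and SE as bars. The ERCC values lie below the TMM values for each gene, and Dis3l2 and Exosc10 are above 0 with TMM alone.

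The partners of these ribonucleases were described from 5 lists. Exosc9, a core ring subunit, was called lower in all 7 knockout comparisons. It fell by 1.20, 0.75 and 0.69 in GV, GV3h and MII poly(A) libraries and by 2.02 in adult RiboMinus oocytes. At p20 it fell by 1.00 in Dis3 cKO, 0.60 in Exosc10 cKO and 0.82 in dcKO. Exosc2, a cap subunit with RNA-binding domains, rose by 0.88, 0.83 and 0.77 in the poly(A) knockouts and by 1.17 in dcKO. Exosc6, another ring subunit, rose by 1.32 at GV3h and 1.44 at MII. The core list counted 1 higher and 1 lower of 9 at GV, 2 and 1 at GV3h, and 5 and 2 at MII, where 21.9%, 38.6% and 42.1% of all genes were called. In RiboMinus it counted 0 and 1 of 8 in adult, p20 Dis3 cKO and Exosc10 cKO (28.1%, 7.37% and 7.45% of all genes), and 1 and 2 in dcKO (53.7%). The core's median log2 change was 0.30 at MII (all genes 0.16) and between -0.04 and 0.12 in the other 6 comparisons (all genes -0.01 to 0.07).

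Of 11 nuclear cofactors, which bring substrates to the exosome, 0 were called in p20 Dis3 cKO (7.37% of all genes) and 2 rose in Exosc10 cKO (7.45%), Zcchc7 of the TRAMP complex by 0.56 and Zfc3h1 of the PAXT connection by 0.35. On loss of Dis3, Zfc3h1 also rose by 0.56, 0.42 and 0.33 at the successive poly(A) stages, and it rose by 0.38 in adult RiboMinus oocytes and by 0.82 in dcKO. The list counted 2 higher and 1 lower at GV, 2 and 2 at GV3h, 3 and 2 at MII, 1 and 2 in adult Dis3 cKO, and 2 and 4 in dcKO, where 21.9%, 38.6%, 42.1%, 28.1% and 53.7% of all genes were called, with medians from -0.05 to 0.13 over the 7 comparisons. In dcKO Mtrex, the helicase shared by the nuclear cofactor complexes, fell by 0.82 and C1d, a cofactor that binds EXOSC10, rose by 1.69. C1d also rose by 2.20 at GV3h.

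Of 5 cytoplasmic cofactors, which serve the exosome that DIS3L belongs to, 0 were called in adult Dis3 cKO, p20 Dis3 cKO and Exosc10 cKO. The shares of all genes called there were 28.1%, 7.37% and 7.45%. In dcKO 4 rose and 1 fell, beside 53.7% of all genes called. Wdr61 and the helicase Skiv2l of the SKI complex rose by 1.53 and 1.21, and Ttc37, its scaffold, fell by 1.45. At GV3h, where 38.6% of all genes were called, 3 of the 5 rose: Skiv2l by 0.95, Wdr61 by 0.76 and Pelo, a ribosome rescue factor, by 0.65. The list counted 1 higher and 0 lower at GV (21.9% of all genes) and 0 and 1 at MII (42.1%). Its median was 1.14 in dcKO (all genes -0.01) and 0.65 at GV3h (all genes 0.07).

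Among 13 other genes that act at RNA 3-prime ends, including the uridylating enzymes that mark RNAs for DIS3L2, 0 were called at GV and 0 in p20 Dis3 cKO. In dcKO 6 rose and 2 fell, beside the same 53.7% of all genes, and Tut4, a uridylyltransferase, rose by 3.05. Adult Dis3 cKO oocytes had 5 higher and 1 lower, beside 28.1% of all genes. Toe1, a deadenylase that trims small nuclear RNAs, rose there by 0.81 and in dcKO by 2.05. Of 5 genes of decay from the other RNA end, the cytoplasmic exonuclease Xrn1 fell by 1.10, 1.07 and 1.56 in the poly(A) stages, by 0.53 in adult RiboMinus and by 0.87 in dcKO. At p20 in Dis3 cKO it rose by 0.38. In the same list Nrde2, a binding partner of the helicase MTREX, rose by 1.31 at GV and 1.76 at GV3h, and Dxo, a decapping exonuclease, rose by 0.98 at MII. The list of 13 counted 2 higher and 2 lower at GV3h and at MII and 1 and 1 in Exosc10 cKO, with medians from 0.01 to 0.38. The list of 5 counted 1 and 1 at GV, in adult Dis3 cKO and in dcKO, 1 and 2 at GV3h and MII, 1 and 0 in p20 Dis3 cKO and 0 and 0 in Exosc10 cKO, with medians from -0.31 to 0.04. The shares of all genes called were those given for the other lists.

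Neighbouring genes can share reads with these genes, since the strand setting of the counting is not given in the sources used here. Pibf1 overlaps Dis3 by 357 bases on the opposite strand, 1.54% of the Dis3 span. Its difference in Dis3 cKO was 0.00, -0.14 and -0.24 at GV, GV3h and MII. In RiboMinus it was 0.29 in adult and 0.27 in p20 oocytes, and 0 of these 5 were called. In dcKO Pibf1 fell by 0.80 (adjusted p = 3.1e-05). Dis3l2 overlaps the pseudogene Gm6136 over 947 bases and the lncRNA Gm41909 over 5166 bases (1.48% of its span).

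The genes whose pattern over the libraries came closest were named by the highest Pearson correlation of log2(CPM + 1) with each gene. In 71 poly(A) libraries these were Polr3f (r = 0.84) and Dnajb1 (0.81) for Dis3, Fbxo10 and Nup107 (both 0.84) for Exosc10, Rbm42 and Eif3c (both 0.93) for Dis3l, and Rnf34 and Cdca4 (both 0.82) for Dis3l2. In 48 RiboMinus libraries they were Sfta2 (0.82) and Rimbp2 (0.80) for Dis3, Lgi2 (0.93) and Siglecf (0.90) for Exosc10, Prkab1 (0.80) and Calu (0.79) for Dis3l, and Stoml2 (0.60) and Farsa (0.58) for Dis3l2. These points share stages, genotypes and library scaling, and the correlations are a description.

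The deposited Pol II peak lists hold the 4 genes unequally. In the p20 control lists the body of Dis3 had 0, 1 and 0 peaks, that of Exosc10 7, 6 and 8, that of Dis3l 9, 11 and 10, and that of Dis3l2 6 in each. The genes differ in span, from 23147 bases (Dis3) to 348174 bases (Dis3l2). Exosc10 peaks covered 11.18% to 25.36% of the gene, and 8.85% to 12.61% of coding genes had at least as many peaks. Dis3l2 peaks covered 0.785% to 0.883% of the gene, and 11.45% to 12.61% of coding genes had at least as many. Dis3l peaks covered 17.8% to 20.5% of the gene, and 5.81% to 7.004% of coding genes had at least as many peaks. Among peaks above the median total signal it had 5, 7 and 3, and 5.42% to 14.96% of coding genes had at least as many. Adult GV control lists had 0, 1 and 0 peaks in Dis3, 1, 1 and 0 in Exosc10, 2, 3 and 3 in Dis3l and 0, 1 and 2 in Dis3l2. Adult Dis3 cKO lists had 0, 0 and 2 in Dis3, 5, 0 and 2 in Exosc10, 3, 4 and 10 in Dis3l and 4, 2 and 10 in Dis3l2. The lists themselves held 74287 to 82446 peaks at p20, 19697 to 35843 in adult controls and 30311 to 122606 in adult Dis3 cKO. Because the lists differ this much in length, peak counts in a gene were not compared between groups.

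A Pol II peak within 1 kb of a listed start was found for Exosc10 in 1 p20 control list and for no other of the 4 genes in any Pol II list, where 8.53% to 10.3% of all starts had one at p20. The motif-bearing start of Dis3 printed above had no Pol II peak within 1 kb in any of these 9 lists. H3K27me3 peaks, a repressive mark, numbered 0 in Dis3l in all 12 lists, and Dis3 and Exosc10 had 1 each, in different dcKO lists. Dis3l2 had 0 to 4. Of all coding genes, 33.7% to 55.7% had a peak in these lists.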

How the data were processed

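The deposited values are whole-number read counts per gene and library, made by the authors; the submitters' processing notes name cutadapt 2.5, STAR 2.7.2a, SAMtools 1.9, HTSeq 0.9.1 and mm10, without roles. Annotation release and strand use are not given in the sources used here. CUT&Tag libraries were each sampled to 3000000 reads and not deduplicated, per the design text, and the deposited peak lists, with SEACR named in the notes, give the authors' signal per peak and library, used only to filter peaks.

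Counts were tested as deposited by the quasi-likelihood F test of edgeR 4.0.16, run in R 4.3.3, with TMM and filterByExpr (Benjamini-Hochberg over all genes tested, threshold 0.05). The 6 poly(A) groups shared 1 fit, as did the 4 p20 groups; the adult pair had its own, and comparisons of age used all 6 RiboMinus groups. DESeq2 1.42.0, RLE and ERCC scaling, no filter, tag sums and left-out libraries were alternatives, and the code was tested on simulated data. Interval bounds cover 95%. Partners named come from the 3 largest called changes per list and comparison, not all of which are named, and closest patterns the top 2 by correlation per gene and assay. The genes, lists and rules were chosen with earlier results of these data known. All value columns were used.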

Additional observations from a re-analysis of the deposited data

Results flagged for a closer look

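Among 36 group checks for a single extreme library, 2 stood out, and chance gives about 1 in 20. Exosc10 in GV control replicate 1 was 49.1 CPM, where the other 7 controls lay between 97.8 and 121 CPM. Dis3 in p20 Dis3 cKO oocyte 1_4 was 4.11 CPM, where the other 7 lay between 1.29 and 2.32 CPM.

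The Dis3 effect on Dis3l differed between adult and p20 RiboMinus oocytes by 0.84 on the log2 scale, by a test of the difference itself. Dis3l was 0.12 higher in the adult knockout and 0.73 lower at p20 (log2 -0.73), the p20 control tags did not overlap (278 and 195 CPM on average), and the part of the tags in this difference was not tested beyond the tag sums (0.81, adjusted p = 0.200).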

How the results depend on the processing

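Over 61 results, 464 values were recomputed with another scaling, filter, tool or grouping. Of these, 408 kept direction and call, 13 lost the call, 10 gained it and 33 changed sign. With 1 library left out at a time, 757 of 780 values over 54 results kept both, 2 lost the call, 5 gained it and 16 changed sign. Of the 49 sign changes, 38 had neither value past the threshold and 3 had both.

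ERCC scaling measures genes against added RNA, and moves the median gene with the members. In poly(A) Dis3 cKO against control it turned the sign of Dis3l2 at GV (-0.081) and of Exosc10 at MII (0.23). It ended the calls of Exosc10 (-0.57) and Dis3l (-0.54) at GV3h, which kept sign and size, and of Dis3l at MII (-0.041). From GV to MII it gave Exosc10 -1.26, Dis3 -2.27 and Dis3l2 -0.61 in controls, and Exosc10 -0.51 and Dis3l2 -0.0064 in Dis3 cKO. The stage differences in the Dis3l effect were 0.012 at GV3h and 0.51 at MII. In adult Dis3 cKO it gave Exosc10 -0.52 and Dis3l -0.43, both called lower, and Dis3l2 -0.32, and in p20 Dis3 cKO Exosc10 -0.26 and Dis3l2 -0.22. Dis3 in dcKO against Dis3 cKO was called at 0.78, and the stage difference of the Dis3 effect at MII was -0.79. For Dis3l it gave 0.27 in dcKO against Dis3 cKO, 0.11 for the departure from the summed single effects and -1.47 from p20 to adult in Dis3 cKO. From p20 to adult in controls it gave Exosc10 -1.47, Dis3 -1.43 and Dis3l2 -1.55, with the median gene at -1.69 there and at -1.86 in Dis3 cKO.

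A fit of the compared groups alone gave Dis3l -0.34 at GV, now called, and -0.54 at MII, no longer called. It also called Exosc10 from GV to GV3h in controls at 0.44 and from p20 to adult in controls at 0.20. Counts summed per tag ended the calls of Dis3 in adult oocytes (-3.20), Dis3l in p20 Dis3 cKO (-0.74) and Dis3l with age in controls (-0.39). Tag 1 alone, chosen after seeing the data like tag 2 alone, gave Dis3l -0.076 and Dis3 -0.31 in Exosc10 cKO, Dis3l 0.0069 in dcKO against Dis3 cKO, Exosc10 -0.22 in dcKO against Exosc10 cKO, and Exosc10 -0.32 and Dis3l 0.083 for the departure from the sum. Tag 2 alone gave Dis3l -0.45 and Dis3l2 -0.027 in p20 Dis3 cKO and Dis3l2 -0.050 in dcKO. Dis3l in dcKO against Dis3 cKO was 0.0084 with RLE scaling, 0.011 with no filter and 0.0085 with DESeq2.

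Titles of poly(A) and p20 libraries share replicate numbers, but same-numbered libraries did not deviate together (median correlation 0.0134 and 0.0159, lowest -0.233 and -0.307), so the numbers were not taken as pairs. With the replicate number as a block Dis3l2 was -0.067 at GV and Dis3 -0.028 from GV to GV3h in controls, and the difference in the Dis3 effect between MII and GV was -2.14 (adjusted p = 0.0025). With title numbers 1 to 8 alone Dis3l2 was -0.021 at GV, and Exosc10 from GV to GV3h in controls was called at 0.43.

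With 1 library left out, Dis3l ranged from -0.38 to -0.29 at GV and from -0.59 to -0.40 at MII, and Dis3l in dcKO against Dis3 cKO from -0.084 to 0.075. Exosc10 ranged from 0.36 to 0.48 from GV to GV3h in controls and from -0.011 to 0.085 in adult Dis3 cKO. Dis3 ranged from -0.055 to 0.11 from GV to GV3h in controls, and the stage difference of Dis3l2 at MII from -0.058 to 0.23. Leaving out RiboMinus and poly(A) control libraries other than GV control replicate 1 was chosen after seeing the data. The causes of these changes were not tested. Counting error limits Dis3 in the knockouts, where counts reached 0, and reads carry no molecular identifiers.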
